A study of Homo sapiens with 43 samples.

Results

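The 10 genes described here encode the main cytosolic and mitochondrial heat shock chaperones and the factor that drives them: HSPA1A, HSPA1B, HSPA8, HSPH1, HSP90AA1, HSP90AB1, DNAJB1, HSPD1, HSPE1 and HSF1. They were taken by name, as 10 of the 20037 protein-coding genes of the RefSeq table. For each of 33 lists of ChIP-seq peaks it was asked whether a peak lay within 1 kb of either end of the gene in hg38, and for Ser2P also over the gene with 2 kb on each side. The lists came from SUDHL5 and KARPAS422, established human lines of diffuse large B-cell lymphoma, treated with CDK-TCIP1 at 30 nM or with DMSO. CDK-TCIP1 is a bivalent molecule that binds the kinase CDK9 and the repressor BCL6. CDK9 itself was precipitated at 2 h, in SUDHL5 with antibody ab239364 and separately with CST2316S, and in KARPAS422 with CST2316S alone, giving 2 CDK-TCIP1 and 2 DMSO lists in each set. In SUDHL5, polymerase II with phosphate on serine 2 (Ser2P) or on serine 5 (Ser5P) of the repeats in its tail was mapped in 2 lists each, and total polymerase II (Pol II) in 3 lists each, of CDK-TCIP1 at 2 h, CDK-TCIP1 at 4 h and DMSO at 4 h. The 2 h and 4 h polymerase comparisons therefore share their DMSO lists, and the 2 h lists differ from DMSO in time as well as in treatment.

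Heat shock chaperones bind unfolded or immature proteins and help them to fold, and their genes are among the most strongly inducible in human cells. The factor HSF1 binds heat shock elements, inverted repeats of the triplet GAA, in front of these genes. Heat shock genes are also a classic case of promoter-proximal pausing, in which polymerase II stops shortly after the start until the kinase CDK9 releases it into elongation.

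The lists held between 138 and 28951 peaks, and the lengths of the CDK9 and Ser2P lists moved with the treatment, in opposite directions. CDK9 lists of CDK-TCIP1 cells held 9262 to 11148 peaks with ab239364 in SUDHL5, 9761 to 10005 with CST2316S in SUDHL5 and 10297 to 14554 in KARPAS422, against 915 to 3508, 1264 to 1611 and 6689 to 7804 in the DMSO lists of the same sets. Ser2P lists held 6519 to 16170 peaks at 2 h and 13657 to 16323 at 4 h, against 16593 to 28951 in DMSO, while the ranges of Ser5P and Pol II overlapped with DMSO at both times. Replicate 1 of Pol II had the shortest list in each of its groups, with 1214 peaks at 2 h, 138 at 4 h and 710 in DMSO. The part of list length in the results was not tested beyond the alternatives named beside them. Of the cell type markers, 6 to 7 of 7 B-cell markers had a peak in each Ser5P list and in each KARPAS422 CDK9 list, against 2 to 7 in the SUDHL5 CDK9 lists, and over all 33 lists the number ranged from 0 to 7. T-cell markers had peaks too: CD3E alone of 5 in all 6 Ser5P lists, and 2 to 3 of the 5 in each KARPAS422 CDK9 list. Of 4 myeloid markers CSF1R had a peak in some lists but in no Ser5P or CDK9 list, and none of the 4 markers of other tissues had one in any list.

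The promoters that the results below turn on are shown as RefSeq gives them for GRCh38.p14, from 250 bases before to 50 bases after the RefSeq start, 5′ to 3′ on the strand of the gene. Capitals mark heat shock elements, searched on both strands as the pairs GAANNTTC and TTCNNGAA and as triplets. A triplet is GAANNTTC followed by NNGAA, or its reverse complement, and holds both pairs, so the matches overlap. HSPA1A and HSPA1B are shown because they are nearly the same sequence, and the others because CDK9 or polymerase peaks lay on or beside them. For HSP90AB1 the promoter shown is that of its innermost start. Its best Ser5P and Pol II summits lay at its second start, whose promoter is not shown and holds no heat shock element.
HSPA1A, chr6:31815293-31815592, plus strand: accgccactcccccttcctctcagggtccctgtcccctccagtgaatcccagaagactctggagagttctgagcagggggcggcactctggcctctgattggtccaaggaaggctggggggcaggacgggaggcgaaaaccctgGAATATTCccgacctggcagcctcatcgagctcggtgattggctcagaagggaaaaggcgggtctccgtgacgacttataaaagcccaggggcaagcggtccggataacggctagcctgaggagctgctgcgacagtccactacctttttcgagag
HSPA1B, chr6:31827488-31827787, plus strand: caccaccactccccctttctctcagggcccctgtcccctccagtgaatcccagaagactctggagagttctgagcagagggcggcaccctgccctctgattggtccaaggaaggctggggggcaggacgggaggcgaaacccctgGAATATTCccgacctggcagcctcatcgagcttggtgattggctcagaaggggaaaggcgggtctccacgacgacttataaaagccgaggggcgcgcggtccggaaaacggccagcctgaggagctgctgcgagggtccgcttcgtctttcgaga
HSPA8, chr11:123062087-123062386, minus strand: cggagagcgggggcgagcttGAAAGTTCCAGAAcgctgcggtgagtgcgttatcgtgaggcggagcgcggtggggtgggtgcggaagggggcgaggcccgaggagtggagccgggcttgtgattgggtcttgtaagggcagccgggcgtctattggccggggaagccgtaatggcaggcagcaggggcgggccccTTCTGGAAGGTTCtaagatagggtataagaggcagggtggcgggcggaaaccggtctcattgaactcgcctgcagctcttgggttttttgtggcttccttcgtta
HSP90AA1, inner start, chr14:102086995-102087294, minus strand: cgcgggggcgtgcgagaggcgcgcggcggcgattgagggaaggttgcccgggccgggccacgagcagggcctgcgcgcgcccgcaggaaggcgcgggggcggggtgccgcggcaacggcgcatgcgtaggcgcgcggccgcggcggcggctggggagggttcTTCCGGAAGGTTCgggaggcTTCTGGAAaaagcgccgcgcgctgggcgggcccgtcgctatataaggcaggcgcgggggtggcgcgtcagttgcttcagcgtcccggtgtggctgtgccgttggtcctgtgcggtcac
HSP90AB1, innermost start, chr6:44247693-44247992, plus strand: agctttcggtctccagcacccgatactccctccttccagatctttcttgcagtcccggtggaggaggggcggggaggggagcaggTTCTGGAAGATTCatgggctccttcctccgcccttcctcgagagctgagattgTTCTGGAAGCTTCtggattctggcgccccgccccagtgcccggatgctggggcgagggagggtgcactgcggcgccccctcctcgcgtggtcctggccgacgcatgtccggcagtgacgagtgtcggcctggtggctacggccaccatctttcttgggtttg
DNAJB1, chr19:14518348-14518647, minus strand: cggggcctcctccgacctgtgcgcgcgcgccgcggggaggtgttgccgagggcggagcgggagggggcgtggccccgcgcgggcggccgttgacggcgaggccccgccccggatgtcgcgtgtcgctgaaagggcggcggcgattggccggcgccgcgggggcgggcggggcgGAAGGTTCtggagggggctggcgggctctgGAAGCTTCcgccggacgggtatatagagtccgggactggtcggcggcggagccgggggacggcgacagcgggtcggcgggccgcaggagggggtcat
HSPD1, inner start, chr2:197499791-197500090, minus strand: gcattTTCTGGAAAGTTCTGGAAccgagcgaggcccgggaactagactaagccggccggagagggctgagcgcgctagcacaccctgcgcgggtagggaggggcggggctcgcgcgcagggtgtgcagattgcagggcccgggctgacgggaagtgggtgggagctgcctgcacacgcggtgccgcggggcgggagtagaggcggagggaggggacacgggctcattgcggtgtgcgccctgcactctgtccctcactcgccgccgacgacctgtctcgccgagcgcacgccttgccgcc
RefSeq promoters were at hand for 9 of the 10 genes, 15 promoters in all. The pair GAANNTTC was in 8 of these 15 promoters, from 7 of the 9 genes, and in 6.77% of all 35116 promoters searched. The pair TTCNNGAA was in 4 promoters from 4 genes, and in 7.74% of all promoters. A triplet was in 4 promoters from 4 genes (HSPA8, HSP90AA1, HSP90AB1 and HSPD1), and in 0.49% of all promoters. The core of the BCL6 motif, TTCNNNGAA, was in 0 of the 15 and in 7.66% of all, which says only that these letters are not in these windows. The TATA box TATAAA was in 2 of the 15, those of HSPA1A and HSPA1B, and in 11.5% of all. The CCAAT box CCAAT was in 7 of the 15 and in 34.6% of all, and the GC box GGGCGG in 14 of the 15 and in 45% of all.

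At a gene end or a RefSeq start, 8 of the 10 genes had a peak in all 6 Ser2P and all 6 Ser5P lists, HSPA1B had one in 6 and 5 of them and HSPA1A in 0 and 1, while CDK9 peaks differed more from gene to gene. HSP90AB1 had a peak at a gene end in 31 of the 33 lists, HSPA8 in 29, HSPD1 and HSPE1 in 24 each, HSPH1 in 20, HSPA1B and HSF1 in 15 each, HSP90AA1 in 13, DNAJB1 in 5 and HSPA1A in 1. HSP90AA1 and DNAJB1 are long RefSeq genes with inner starts outside that window. The inner start of HSP90AA1 lies 6.302 kb from the nearest gene end, and those of DNAJB1 lie 3.168, 3.628 and 14.502 kb from it. Within 1 kb of any RefSeq start, a window added after the data were seen, HSP90AA1 had a peak in 27 lists and DNAJB1 in 19.

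**Figure D1:**
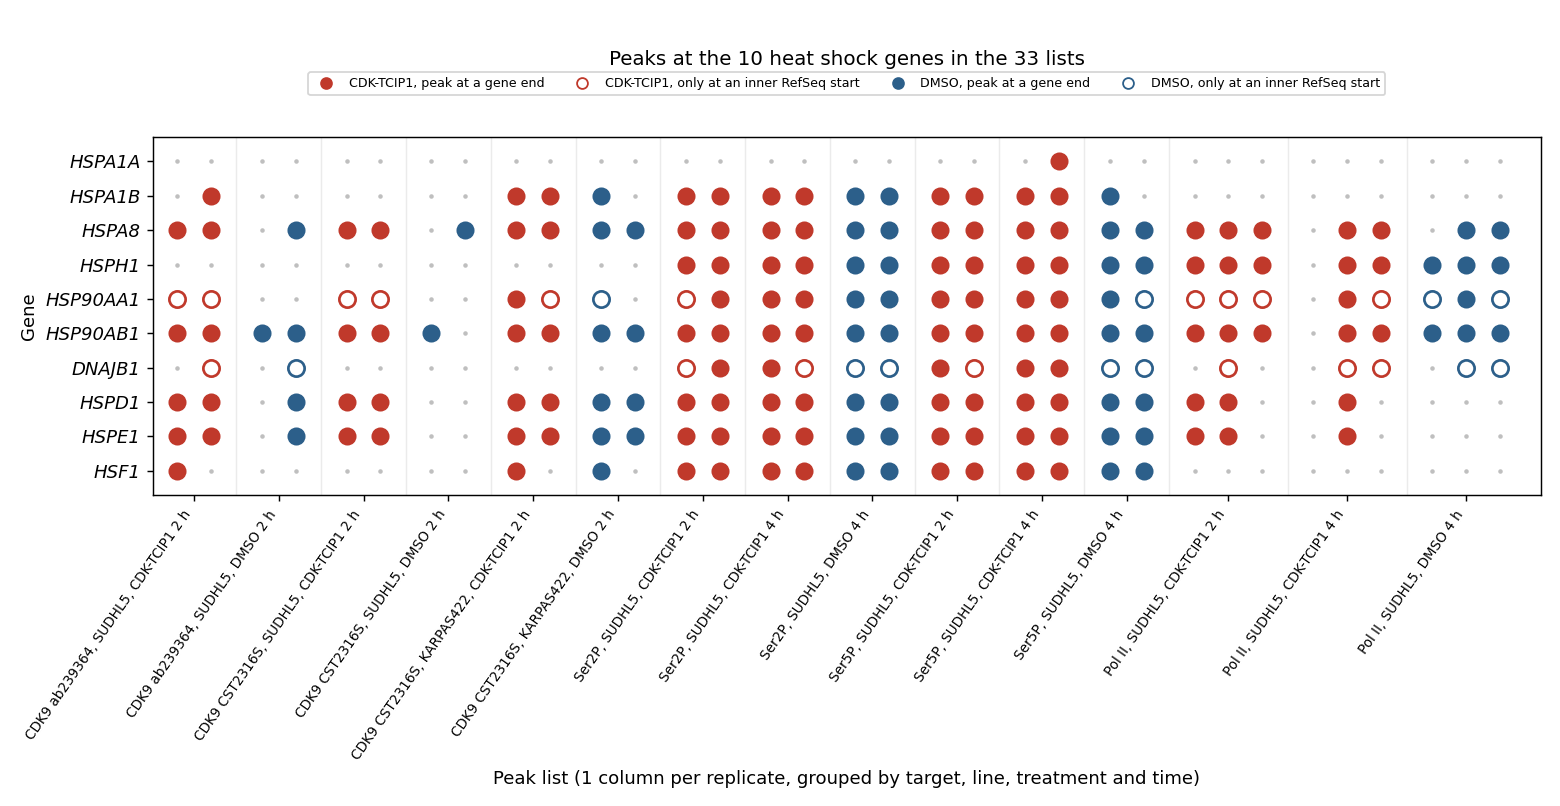
Peaks at the 10 genes (rows) in the 33 lists (columns, 1 per replicate, grouped by target, line, treatment and time); filled circles are peaks within 1 kb of a gene end, open circles peaks found only within 1 kb of an inner RefSeq start, red CDK-TCIP1 and blue DMSO. HSPH1 has no CDK9 peak in any of the 12 CDK9 lists, and HSP90AA1 has CDK9 in all 4 CDK-TCIP1 lists of SUDHL5 and in 0 of the 4 DMSO lists.

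CDK9 at gene ends was called gained where both CDK-TCIP1 lists held a peak and neither DMSO list did, and lost in the opposite case. With CST2316S in SUDHL5, 2 of the 10 genes were gained, HSPD1 and HSPE1, and 6.31% of all genes were. With ab239364 in SUDHL5, 0 of the 10 were gained, against 7.57% of all genes, and in KARPAS422 0 of 10, against 4.38%. None of the 10 was lost in these 3 sets, and the shares of all genes lost were 0.00998% with ab239364, 0% with CST2316S in SUDHL5 and 0.629% in KARPAS422. At RefSeq starts, 1 of the 9 genes with a start was gained with ab239364 (HSP90AA1), against 7.89% of all genes with a start. With CST2316S in SUDHL5 it was 3 of 9 (HSP90AA1, HSPD1 and HSPE1), against 6.56%, and in KARPAS422 1 of 9 (HSPA1B), against 4.68%. HSPD1 and HSPE1 share their peaks and are not separate observations. The lengths below are the bases of the window covered by peaks, in kb. With 2 lists against 2 the exact two-sided permutation test cannot give a p below 0.333, so none of these differences can pass 0.05.

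HSPA8 (gene ID 3312, chr11:123057489-123062462) encodes the constitutive cytosolic HSP70, HSC70. CDK9 peaks with ab239364 in SUDHL5 covered 1.92 and 1.41 kb of its gene-end window in the CDK-TCIP1 lists, against 0 and 1.30 kb in the DMSO lists. With CST2316S in SUDHL5 they covered 1.41 kb in both CDK-TCIP1 lists, against 0 and 0.364 kb in the DMSO lists. Both CDK-TCIP1 lists thus lay above both DMSO lists with each antibody, by 1.01 kb and 1.23 kb on average (exact permutation p = 0.333 each, adjusted over all covered genes 0.621 and 0.536), as did 16% and 8.11% of all genes. Within 1 kb of the RefSeq start the ab239364 groups overlapped (difference 0.749 kb), and at gene ends that difference was 0.363 kb without replicate 1 of DMSO and 1.66 kb without replicate 2. The order was not so in KARPAS422, where HSPA8 had 1.34 and 1.66 kb in the CDK-TCIP1 lists, against 1.58 and 2.00 kb in the DMSO lists, and the groups overlapped. The difference between the lines was not tested. With the same number of best peaks taken from each list, the SUDHL5 difference was 0 kb with ab239364 and -0.182 kb with CST2316S. Per Mb covered by the whole list it was -136 and -50.4 bases.

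CDK9 at HSPA8 had summits upstream of the start as well as at it. All 6 CDK-TCIP1 lists of CDK9, in both lines and with both antibodies, had a peak with its summit between -1260 and -647 bases from the RefSeq start, where negative values are upstream. Of the 6 DMSO lists of CDK9, 2 had one, both from KARPAS422, at -759 and -737 bases. A CDK9 summit at the start was present besides in 4 of the 6 CDK-TCIP1 lists, 0.145 to 0.206 kb inside the gene, and in 3 of the 6 DMSO lists, from -0.221 to 0.367 kb. The best polymerase peak had its summit 87 to 321 bases inside the gene in all 6 Ser5P lists, 163 to 332 bases inside it in all 6 Ser2P lists and 89 to 354 bases inside it in the 7 of 9 Pol II lists with a peak. A peak with an upstream summit, in the range of 400 to 1500 bases chosen after the data were seen, was also present in 1 of the 6 CDK-TCIP1 and 0 of the 3 DMSO lists of Pol II and in 0 of the 4 CDK-TCIP1 and 1 of the 2 DMSO lists of Ser5P. The triplets of heat shock elements in the printed promoter start at -230 and -55 bases, between the upstream CDK9 summits and the polymerase summits. A RefSeq lncRNA of unknown strand here, LOC124902775 (chr11:123062662-123084877), begins 526 bases upstream of the HSPA8 start and spans the upstream summits. Over all genes with a single RefSeq start, the best CDK9 peak at the start had its summit at least 400 bases upstream in 10.5% to 28.5% of the covered genes of the CDK-TCIP1 lists, against 7.72% to 21.5% in the DMSO lists, and in 9.66% to 11.9% over the Ser5P lists.

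**Figure D2:**
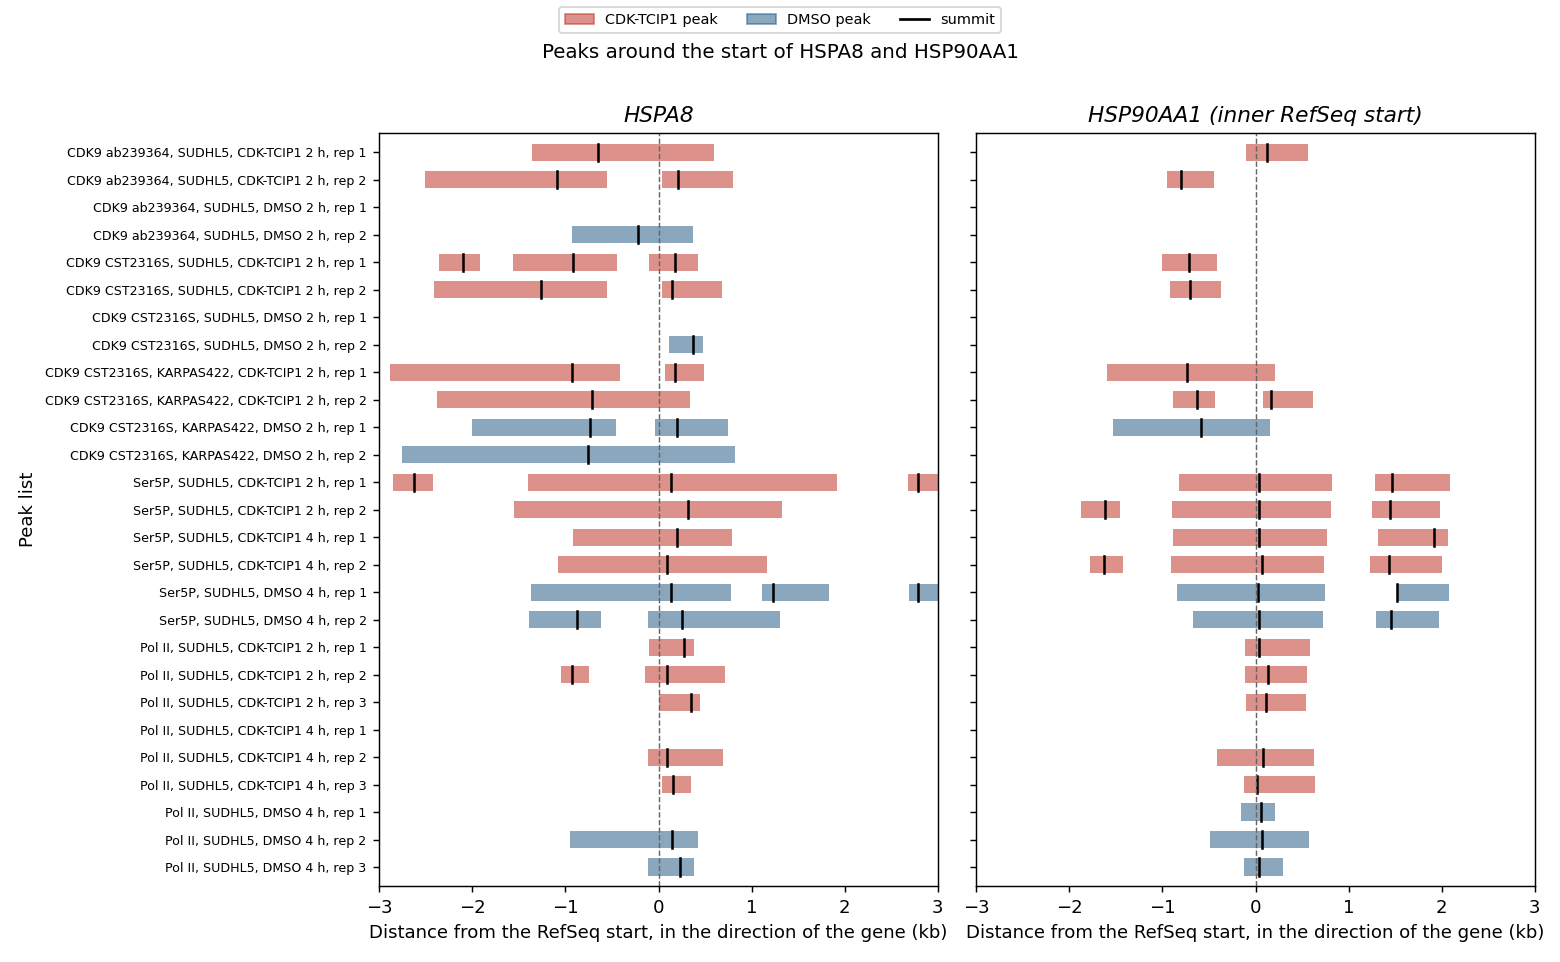
Peaks (bars) and their summits (black ticks) by distance in kb from the RefSeq start, in the direction of the gene, at HSPA8 (left) and at the inner start of HSP90AA1 (right), 1 row per CDK9, Ser5P and Pol II list; red is CDK-TCIP1 and blue DMSO. The best CDK9 summits of CDK-TCIP1 lists reach -1260 bases at HSPA8 and -802 bases at HSP90AA1. A lower-ranked CDK9 summit at HSPA8 lies at -2.105 kb, in a CDK-TCIP1 list of SUDHL5 with CST2316S. The best Ser5P and Pol II summits sit inside both genes, within 354 bases of the start.

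HSP90AA1 (gene ID 3320, chr14:102080742-102139749) encodes the inducible cytosolic HSP90-alpha. Its inner start is chr14 position 102087044, whose promoter carries a triplet at -88 bases. CDK9 peaks within 1 kb of its starts covered 0.662 and 0.509 kb in the CDK-TCIP1 lists with ab239364 in SUDHL5, against 0 kb in both DMSO lists. With CST2316S in SUDHL5 they covered 0.591 and 0.557 kb in the CDK-TCIP1 lists, against 0 kb in both DMSO lists. In KARPAS422 it had 2.02 and 1.00 kb in the CDK-TCIP1 lists, against 1.16 and 0 kb in the DMSO lists, so that CDK9 was present in 1 DMSO list of that line and the groups overlapped. Of the 2.02 kb, 0.809 kb lay at the outer start, whose window also holds an end of WDR20. The 2 SUDHL5 differences averaged 0.586 kb (adjusted p = 0.620) and 0.574 kb (adjusted p = 0.540) in the exact permutation test over 2 lists against 2. The peaks of the CDK-TCIP1 lists lay above 49.3% and 26.2% of the peaks of their own list with ab239364, and above 68.4% and 57.4% with CST2316S. As at HSPA8, most CDK9 summits were upstream: 5 of 6 CDK-TCIP1 lists had one between -802 and -624 bases from the inner start, against 1 of 6 DMSO lists, at -591 bases. Of the CDK-TCIP1 lists, only the first with ab239364 lacked one, its summit being at 121 bases. No other DMSO list had a CDK9 peak near the inner start, so these counts follow presence of a peak and do not compare positions.

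The best polymerase peaks at HSP90AA1 lay at the inner start. The best Ser5P peak had its summit 27 to 69 bases inside that start in all 6 lists and ranked above 98.1% to 98.8% of the peaks of its list. Ser5P cover of the start windows was 2.55 and 2.43 kb at 2 h and 2.12 and 2.5 kb at 4 h, against 2.43 and 1.39 kb in DMSO, and the groups overlapped. Pol II covered 0.702, 0.674 and 0.652 kb at 2 h and 0, 1.57 and 0.762 kb at 4 h, against 0.366, 1.93 and 0.414 kb in DMSO. These values take in the outer start, which is also a gene end: the gene ends had 1.11 and 0.721 kb of Ser5P at 2 h and 0.465 and 0.849 kb at 4 h, against 0.844 and 0 kb in DMSO. Pol II lay at the gene ends in 1 list at 4 h, with 0.528 kb, and in 1 list of DMSO, with 0.864 kb. The gene-end window also holds an end of WDR20, and peaks there cannot be told apart between the 2 genes. The 0 of Pol II at 4 h belongs to the list of 138 peaks, in which none of the 10 genes had a peak. Ser2P covered 1.24% and 4.03% of the gene with its 2 kb flanks at 2 h and 6.04% and 5.75% at 4 h, against 4.48% and 3.46% in DMSO. The 4 h lists lay above both DMSO lists, by 1.21 kb (exact permutation p = 0.333), as did 8.45% of all genes, and the 2 h lists did not.

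HSP90AB1 (gene ID 3326, chr6:44246194-44253883) encodes the constitutive HSP90-beta and had the highest-ranked peaks of the 10 genes in every Ser5P and Ser2P list, in the 4 CDK9 lists with ab239364 and in the 8 Pol II lists with a peak. With CST2316S, HSPA8 ranked higher in both CDK-TCIP1 lists of SUDHL5 and in all 4 lists of KARPAS422. In every Ser5P list its best peak ranked above 99.6% to 99.8% of the peaks of that list, with the summit 34 to 48 bases inside the second RefSeq start, at chr6 position 44247101. Pol II summits were at the same start, 26 to 48 bases inside it, in the 8 of 9 lists with a peak. With ab239364, its CDK9 peaks ranked above 98.3% and 99.0% of the peaks of the CDK-TCIP1 lists, against 87.2% and 96.4% in the DMSO lists. Ranks from lists of such different length show no change and are given as positions only. CDK9 cover of its starts with ab239364 was 1.70 and 2.38 kb in the CDK-TCIP1 lists, against 0.927 and 1.63 kb in the DMSO lists. With CST2316S in SUDHL5 it was 0.974 and 1.52 kb in the CDK-TCIP1 lists, against 0.395 and 0 kb in the DMSO lists. The groups did not overlap with either antibody at the starts, as in 17.1% and 8.57% of all genes with a start. At gene ends the ab239364 groups overlapped, and per Mb covered by the whole list the difference there was -819 bases, both CDK-TCIP1 lists lying below both DMSO lists. The gene-end difference with CST2316S was 0.385 kb, 0.092 to 0.678 kb with 1 list left out, and -0.037 kb with the same number of best peaks per list. In KARPAS422 the CDK9 cover of its starts was 1.46 and 0.982 kb in the CDK-TCIP1 lists, against 1.33 and 1.69 kb in the DMSO lists. The groups overlapped. The gene-end window also holds an end of SLC35B2, which encodes a transporter, and peaks at that end cannot be told apart between the 2 genes.

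**Figure D3:**
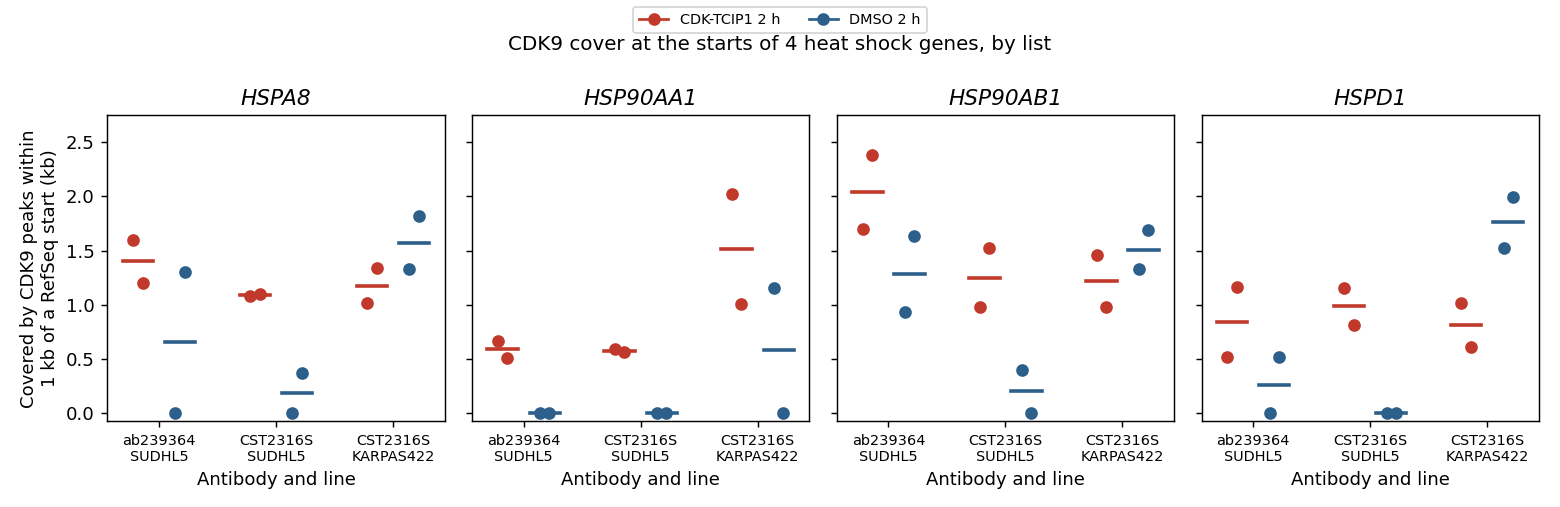
Bases covered by CDK9 peaks within 1 kb of a RefSeq start (kb) at HSPA8, HSP90AA1, HSP90AB1 and HSPD1, for each antibody and line; points are lists, bars the mean of 2, red CDK-TCIP1 and blue DMSO. HSP90AA1, HSP90AB1 and HSPD1 lie higher with CDK-TCIP1 in both SUDHL5 sets, without overlap. So did 17.1% of all genes with a start with ab239364 and 8.57% with CST2316S. In KARPAS422 HSPD1 lies at 1.02 and 0.610 kb with CDK-TCIP1, below 1.52 and 2.00 kb with DMSO, as did 2.54%.

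Ser2P covered a larger share of HSP90AB1 with its 2 kb flanks than of any other of the 10 genes. The flanks also hold an end of SLC35B2, and cover there cannot be told apart between the 2 genes. Ser2P took 34.7% and 49.7% of the gene with its 2 kb flanks at 2 h and 49.6% and 45.5% at 4 h, against 49.8% and 57.6% in DMSO. At both times the CDK-TCIP1 lists lay below both DMSO lists, by 1.35 kb at 2 h (adjusted p = 1 in the exact permutation test), as did 13.3% of all genes, and by 0.721 kb at 4 h, as did 10.1%. The lower DMSO list lay only just above the nearest CDK-TCIP1 lists. Per Mb covered by the whole list the sign turned, with +298 bases at 2 h and +49.2 bases at 4 h.

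HSPH1 (gene ID 10808, chr13:31134973-31162388) encodes HSP110, a nucleotide exchange factor and partner of the HSP70 chaperones. It had no CDK9 peak in any of the 12 CDK9 lists, within 1 kb of either end or over the gene with 2 kb on each side. It had polymerase in all 6 Ser2P lists, all 6 Ser5P lists and 8 of 9 Pol II lists, the exception again being the list of 138 peaks. Its Ser5P peak ranked above 95.2% to 98.2% of the peaks of its list, with the summit 476 to 547 bases inside the RefSeq start. Pol II summits lay 511 to 554 bases inside that start. The RefSeq promoter of HSPH1 holds none of the motifs searched, and its window ends well before those summits. Pol II covered 0.416, 0.682 and 0.651 kb at 2 h and 0, 0.597 and 0.436 kb at 4 h, against 0.332, 0.646 and 0.624 kb in DMSO, so that the groups overlapped at both times. Ser5P covered 1.22 and 0.855 kb at 2 h and 0.714 and 1.23 kb at 4 h, against 0.757 and 0.701 kb in DMSO. Only the 2 h lists lay above both DMSO lists, as did 16.1% of all genes.

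HSPA1A (gene ID 3303, chr6:31815543-31817942) and HSPA1B (gene ID 3304, chr6:31827738-31830254) encode the stress-inducible HSP70. Their promoters printed above are identical at 277 of 299 aligned bases (92.6%), with a longest identical run of 49 bases, so reads from such stretches cannot be assigned to either copy with certainty. How the authors treated such reads is not given in the sources used here. HSPA1A had a peak in 1 of the 33 lists, a Ser5P list of CDK-TCIP1 at 4 h, which covered 0.438 kb. HSPA1B had no Pol II peak in any of the 9 lists and a Ser2P peak in all 6, with the summit 2234 to 3219 bases from its start, around or past the far end of the gene. Ser2P covered 7.06% and 3.96% of HSPA1B with its flanks at 2 h and 11.3% and 19.6% at 4 h, against 15.7% and 19.3% in DMSO. The 2 h lists lay below both DMSO lists, by 0.783 kb, as did 13.3% of all genes, and the 4 h lists overlapped with them. Ser5P covered 1.83 and 2.27 kb of its gene ends at 2 h and 2.42 and 1.47 kb at 4 h, against 1.75 and 0 kb in DMSO. CDK9 lay upstream of the HSPA1B start in both CDK-TCIP1 lists of KARPAS422, with 0.639 and 0.537 kb and summits at -553 and -645 bases, against 0 kb at the start in both DMSO lists. The first of those DMSO lists had a CDK9 peak at the far end of the gene, 2248 bases from the start, so HSPA1B was gained at its start and not at its gene ends. In SUDHL5, 1 of 8 CDK9 lists had a peak at HSPA1B, a CDK-TCIP1 list with ab239364, 2782 bases from the start.

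DNAJB1 (gene ID 3337, chr19:14514769-14560391) encodes HSP40, the J-protein that delivers clients to HSP70 and stimulates its ATPase. CDK9 was at its starts in 1 of 2 CDK-TCIP1 lists with ab239364 and in 1 of 2 DMSO lists, ranking above 2.94% and 1.6% of the peaks of those lists, and in none of the 8 lists with CST2316S. Polymerase sat on the inner starts, with Pol II summits 9 to 37 bases inside the start at chr19 position 14518397. Measured from that start, the best Ser5P summits lay at 0 and -0.012 kb in the DMSO lists. In the CDK-TCIP1 lists they lay 0.355 to 0.445 kb inside it, between -105 and -15 bases from the next inner start, at 14517937. This difference in position was not tested. Ser5P covered 2.66 and 3.05 kb of the start windows at 2 h and 2.51 and 2.57 kb at 4 h, against 2.10 and 1.72 kb in DMSO. Both times lay above both DMSO lists, by 0.945 kb at 2 h and 0.631 kb at 4 h (exact permutation p = 0.333 each), as did 19.5% and 9.57% of all genes with a start. Pol II had a peak at the starts in 1 of 3 lists at 2 h and 2 of 3 at 4 h, against 2 of 3 in DMSO.

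Polymerase gains and losses of whole peaks were few among the 10 genes. DNAJB1 was the only one gained, in Ser5P at 4 h (1 of 10, against 1.4% of all genes). Its 2 peaks covered 0.667 and 0.657 kb of the gene-end window, against 0 kb in DMSO. They lay past the downstream end of the gene, beginning 3.962 and 3.679 kb from the start at chr19 position 14518397, where the gene ends at 3.628 kb. Those 2 peaks ranked above 31.9% and 1.90% of the peaks of their lists. None was gained in Ser5P at 2 h (2.73% of all genes), in Ser2P over the gene at 2 h (0.135%) or 4 h (1.37%), or in Pol II at 2 h (0.17%) or 4 h (0%). None was lost in any polymerase comparison, against 1.98% and 1.21% of all genes in Ser2P, 0.26% and 0.419% in Ser5P and 0.00499% and 0.0299% in Pol II, at 2 h and 4 h in each case. In Ser5P the count rested on single lists: without replicate 1 of DMSO, 2 of the 10 were gained at 2 h and 3 at 4 h. In Pol II at 2 h, 2 were gained without replicate 3 of CDK-TCIP1. The shares of all genes gained with a list left out are not given here.

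HSPD1 (gene ID 3329, chr2:197486584-197500274) and HSPE1 (gene ID 3336, chr2:197500379-197503449) encode HSP60 and its lid HSP10, the mitochondrial chaperonin, and face away from each other, so that the same peaks fall in both windows. CDK9 with CST2316S in SUDHL5 covered 0.937 and 0.571 kb of the HSPD1 gene ends in the CDK-TCIP1 lists, against 0 kb in both DMSO lists. With the same antibody in KARPAS422 it covered 1.02 and 0.483 kb in the CDK-TCIP1 lists, against 1.12 and 1.56 kb in the DMSO lists. The difference was thus 0.754 kb in SUDHL5 and -0.591 kb in KARPAS422, without overlap of the groups in either line, as in 8.11% of all genes above DMSO in SUDHL5 and 2.39% below it in KARPAS422. HSPE1 had 0.832 and 0.466 kb in the CDK-TCIP1 lists of SUDHL5, against 0 kb in both DMSO lists, while in KARPAS422 its groups overlapped. The best KARPAS422 peak ranked above 26.7% and 17.8% of the peaks of the CDK-TCIP1 lists, against 82.7% and 92.1% in the DMSO lists. Leaving out 1 list at a time, the HSPD1 difference was 0.571 to 0.937 kb in SUDHL5 and -0.324 to -0.857 kb in KARPAS422, where it was -0.324 kb without replicate 2 of CDK-TCIP1. With only peaks at -log10 q of 5 or more, HSPD1 and HSPE1 were not gained in SUDHL5, their differences being 0.286 and 0.233 kb with overlap, and HSPA8 was gained instead. With the same number of best peaks per list, HSPD1 and HSPE1 were no longer gained in SUDHL5 (0 of 10 genes), and both were lost in KARPAS422 (2 of 10 genes). These 2 genes share their peaks, and the share of all genes lost in that setting is not given here. The difference between the lines was not tested. With ab239364 in SUDHL5, HSPD1 had 0.408 and 0.774 kb in the CDK-TCIP1 lists, against 0 and 0.513 kb in the DMSO lists, and the groups overlapped. Within 1 kb of its RefSeq starts they did not, with 0.516 and 1.16 kb against 0 and 0.513 kb, as in 17.1% of all genes with a start.

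Polymerase covered the shared HSPD1 and HSPE1 promoter region in all 6 Ser2P and all 6 Ser5P lists. Ser5P covered 1.69 and 2.64 kb of the HSPD1 gene ends at 2 h and 1.36 and 1.71 kb at 4 h, against 1.72 and 1.95 kb in DMSO. The 4 h lists lay just below both DMSO lists, by 0.301 kb, as did 4.24% of all genes, and the 2 h lists overlapped with them. Pol II had 0.388, 0.793 and 0 kb at 2 h and 0, 1.09 and 0 kb at 4 h, against 0 kb in all 3 DMSO lists. Peaks were thus seen in 2 of 3 lists at 2 h and 1 of 3 at 4 h, and the groups overlapped (exact permutation p = 0.4 at 2 h, where the smallest possible p is 0.1).

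HSF1 (gene ID 3297) encodes the master activator of the heat shock response. It had no Pol II peak in any of the 9 lists, and CDK9 in 3 of 12 lists: 1 of 2 CDK-TCIP1 lists with ab239364 (0.590 kb), 1 of 2 CDK-TCIP1 lists in KARPAS422 (0.516 kb) and 1 of 2 DMSO lists in KARPAS422 (0.496 kb). Ser2P covered 4.58% and 16.7% of the gene with its flanks at 2 h and 23.1% and 12.3% at 4 h, against 29.0% and 10.7% in DMSO, where the DMSO lists showed the widest gap between replicates of the 10 genes. Ser5P covered 1.58 and 1.70 kb of its gene ends at 2 h and 0.972 and 2.33 kb at 4 h, against 0.514 and 1.72 kb in DMSO. The groups overlapped in every comparison of HSF1. Its windows also hold ends of BOP1, DGAT1 and LOC124902050, and which gene such a peak belongs to cannot be told apart.

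**Figure D4:**
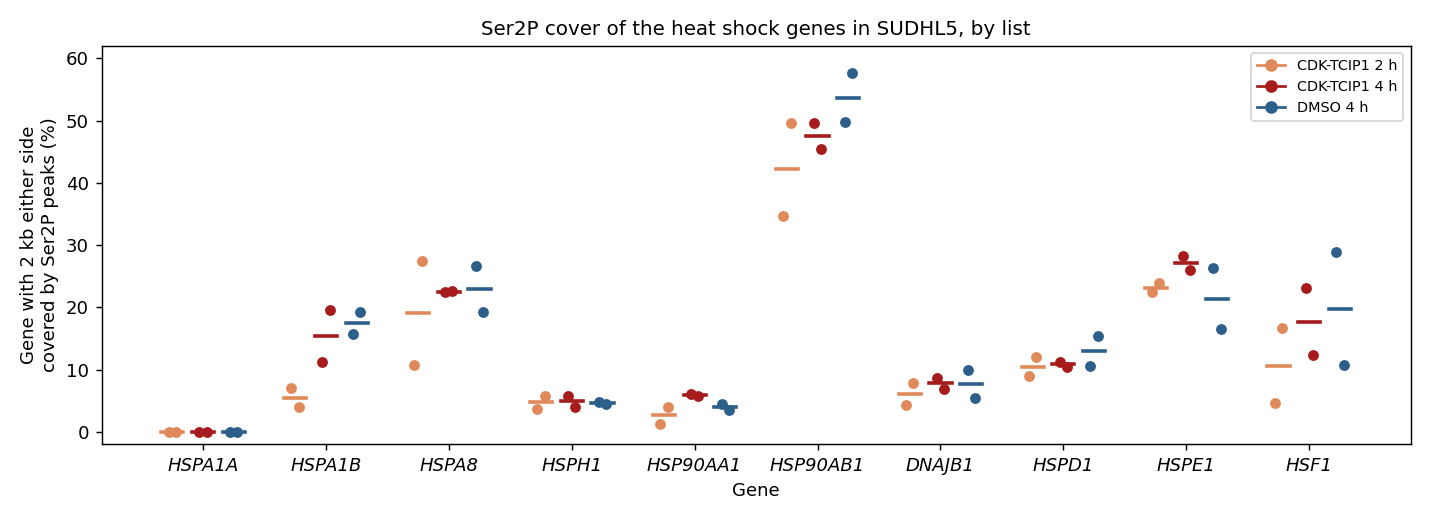
Share of each gene with 2 kb on either side that was covered by Ser2P peaks (%), in CDK-TCIP1 lists at 2 h and 4 h and DMSO lists at 4 h in SUDHL5; points are lists and bars the mean of 2. HSP90AB1 is covered most, with 34.7% to 49.7% in the CDK-TCIP1 lists and 49.8% and 57.6% in DMSO, and HSPA1A not at all.

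The wider chaperone network was described by 84 other chaperone, cochaperone and heat shock response genes. With ab239364 in SUDHL5, CDK9 was gained at 13 of the 84 (15.5%, against 7.57% of all genes), with CST2316S in SUDHL5 at 11 (13.1%, against 6.31%) and in KARPAS422 at 8 (9.52%, against 4.38%). It was lost at 0, 0 and 1 of the 84 in these sets (0%, 0% and 1.19%, against 0.00998%, 0% and 0.629% of all genes). In Ser2P, 1 of the 84 was gained at 2 h (1.19%, against 0.135% of all genes) and 3 at 4 h (3.57%, against 1.37%), and 1 was lost at 2 h (1.19%, against 1.98%) and 0 at 4 h (against 1.21%). In Ser5P, 2 were gained at 2 h (2.38%, against 2.73%) and 0 at 4 h (against 1.4%), and 0 were lost (against 0.26% and 0.419%). In Pol II, 0 of the 84 were gained (against 0.17% and 0% of all genes) or lost (against 0.00499% and 0.0299%) at 2 h and 4 h. More of the 84 than of all genes carried a peak in every list of a comparison, for example 53.6% against 23.9% in Ser5P at 4 h. PTGES3, which encodes the HSP90 cochaperone p23, FKBP5, an HSP90-binding immunophilin, and the J-proteins DNAJB9 and DNAJC1 of the endoplasmic reticulum were gained with both antibodies in SUDHL5. BAG1, a nucleotide exchange factor of HSP70, was gained with ab239364 in SUDHL5 and lost in KARPAS422. PFDN1, a prefoldin subunit, was gained by CDK9 in KARPAS422 and by Ser2P at 4 h.

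The heat shock genes did not share 1 pattern over the 33 lists. The exact set of lists with a gene-end peak was shared with 0 other genes by HSPA1B, DNAJB1 and HSF1, with 1 by HSPA8 and by HSP90AA1, with 3 by HSPD1 and by HSPE1, with 4 by HSPH1 and with 7 by HSP90AB1. HSPA1A, with its single list, shared its set with 43. By the distance between ranks of the best peak over the 33 lists, the 5 genes nearest to the mean of the 10 were DDB1 and TKFC (81.8 points each), ROCK1 (84.0), PRPF38B (87.8) and ZFP30 (89.4).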

How the data were processed

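The 33 peak lists analysed come from 43 labelled samples; the 10 inputs have no list of their own. The submitters' processing notes name MACS2, deepTools, bedtools, Bowtie2, Trim Galore, FastQC, Picard and SAMtools, and the builds hg38 and dm6. Not given in the sources used here are versions, the control behind each call, blacklists and the handling of reads that map to several places. Per the labels' protocols, CDK9 samples were spiked with fly chromatin, and nothing scaled to that spike was used. The labels' titles name the antibody CST2316S and the protocol text orders its digits differently. CDK9 DMSO lists are 0 h by file name and 2 h by label, and were taken as 2 h.

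The deposited lists give for each peak the authors' fold enrichment, a ratio to the background of its own list, with the authors' -log10 p and -log10 q. Their uses here were ranking inside 1 list and an alternative that kept only peaks with -log10 q of 5 or more (the lowest was 1.30). The integer score of the deposited peaks was not used. The lists held 286536 peaks, and 25 peaks on unplaced contigs were dropped. With no read totals to use, depth is unknown and no counting interval can be given.

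The RefSeq table (GRCh38.p14, without strand) gave 20037 protein-coding genes. Starts and strands came from RefSeq promoters, for 15843 genes and 9 of the 10 members. A peak counted when it overlapped a window by at least 1 base. Covered length was compared by exact two-sided permutation tests with Benjamini-Hochberg adjustment over all genes with any cover. The groups were CDK-TCIP1 and DMSO by line, target, antibody and time, in 9 comparisons. The smallest possible p was 0.333 for 2 lists against 2 and 0.1 for 3 against 3. Replicates are not stated to be separate cultures, so p-values measure only the spread between lists, which may be technical. All 10 members are named. Other chaperone genes are named when gained or lost in at least 2 comparisons of different targets or antibodies (6 genes; 84 of the 85 listed are in the table). The members and lists were chosen with earlier results of these data known.

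Alternatives were the stricter q, the same number of best peaks per list, wider windows (2.5 kb at gene ends, 5 kb around genes), gene ends for Ser2P, summits in the window, cover per Mb covered by the list, replicate blocks and each list left out in turn. Chosen after seeing the data were RefSeq starts, Pol II without replicate 1, crossed replicate numbers and the upstream summit range. Replicate blocks paired lists of equal replicate number. The correlations of their deviations from the group means were 0.337, 0.289 and 0.197 in Pol II at 2 h. They were 0.426, 0.307 and 0.0729 in Pol II at 4 h, 0.435 in Ser2P at 4 h and -0.323 in Ser2P at 2 h. In Ser5P they were 0.189 at 2 h and 0.102 at 4 h, and in the CDK9 sets -0.0374 to 0.0316. The pairing comes from the data, not from the labels. The cover calculation was checked against base-by-base counts for random genes in a Ser5P DMSO list. The gain rule was run on planted gains, which it calls by definition, so no error rate was measured. Python 3.11.15 with numpy 2.4.6, pandas 2.3.3, Biopython 1.88 and matplotlib 3.10.9 was used.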

Additional observations from a re-analysis of the deposited data

Results flagged for a closer look

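CDK9 cover at the gene ends of HSPD1, which encodes mitochondrial HSP60, differed between the lines with the same antibody, CST2316S. In SUDHL5 both CDK-TCIP1 lists lay above both DMSO lists, with a difference of 0.754 kb, and in KARPAS422 both CDK-TCIP1 lists lay below both DMSO lists, with a difference of -0.591 kb. The groups did not overlap in either line and lay in opposite orders. Of all genes, 8.11% lay above DMSO without overlap in SUDHL5 and 2.39% below it in KARPAS422. At HSPE1, whose window shares these peaks, the KARPAS422 groups overlapped. The difference between the lines was not tested. The DMSO lists held 1264 to 1611 peaks in SUDHL5 and 6689 to 7804 in KARPAS422, against 9761 to 10005 and 10297 to 14554 in the CDK-TCIP1 lists. With the same number of best peaks per list the HSPD1 difference was 0 kb in SUDHL5 and -1.34 kb in KARPAS422, and with only peaks at -log10 q of 5 or more it was 0.286 kb with overlap in SUDHL5 and -1.02 kb in KARPAS422. Leaving out 1 list gave -0.324 to -0.857 kb in KARPAS422.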

How the results depend on the processing

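The counts of members gained and lost were 0 to 2 of 10 in the main windows, and small changes moved them. At RefSeq starts, 1 member was gained with ab239364, 1 in KARPAS422 and 0 in Ser5P at 4 h. At the stricter q, 1 was gained with CST2316S in SUDHL5 (HSPA8, while HSPD1 and HSPE1 no longer were) and 0 in Ser5P at 4 h. With the same number of best peaks per list, 0 were gained in either, and 2 were lost in KARPAS422. Leaving out 1 list at a time gave 0 to 3 gained with ab239364, 2 to 3 with CST2316S in SUDHL5, 0 to 1 in KARPAS422, 0 to 2 in Ser5P at 2 h, 1 to 3 in Ser5P at 4 h and 0 to 2 in Pol II at 2 h. No other count of gained or lost members moved by more than 1.5 times under these alternatives, summits in the window, wider windows or Pol II without replicate 1. Apart from RefSeq starts, the shares of all genes under the alternatives are not given, so these counts describe the members only. Per Mb covered by the list, 4 differences without overlap turned sign, at HSPA8 (-136 bases with ab239364, -50.4 with CST2316S in SUDHL5) and at HSP90AB1 in Ser2P (298 bases at 2 h, 49.2 at 4 h). A further 6 with overlapping groups turned sign and lost the overlap, among them HSP90AB1 with ab239364 (-819 bases); HSPD1 and HSPE1 with ab239364 turned and kept it (-67.2 and -78.1 bases). With the same number of best peaks and CST2316S in SUDHL5 it turned at HSPA8 (-0.182 kb) and HSP90AB1 (-0.037 kb). The cause was not tested. Cover per Mb divides by the bases covered by the whole list, while the other alternative cuts the lists of a comparison to the same number of peaks. Of 66 differences in covered length, 38 kept their call per covered Mb, 56 with the same number of best peaks, 60 at the stricter q and 54 in wider windows. The replicate block changed no call: the blocked p of HSPA8 with CST2316S was 0.5, the smallest that 2 pairs allow, and no p passed 0.05 with or without it (lowest 0.25 and 0.333). Same-numbered Ser2P lists at 2 h deviated in opposite directions (correlation -0.323), and the crossed pairing changed 0 of 9 calls. Presence of a peak depends on depth, which is unknown, so a missing peak, as for CDK9 at HSPH1, is a peak not called in these lists and no evidence of absence.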
